A study of Mus musculus with 2 samples.

Results

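The accessible regions described here are the ATAC-seq peaks that flank the Tle4 gene on mouse chromosome 19. Members are all peaks of both deposited lists that start in chr19:4500000-24500000 (mm10), leaving out those within Tle4 (14448072 to 14598183) and 10 kb on either side of it. They number 1439 of the 128737 peaks of the wild-type (WT) list and 1300 of the 128129 peaks of the Tle4cKO list. The side towards the centromere, called proximal, holds 926 WT and 839 Tle4cKO peaks, and the other side, called distal, holds 513 and 461. The rule uses position and no measured value, but it was chosen with earlier results of these data known. At Tle4 itself 22 WT and 14 Tle4cKO peaks were left out.

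ATAC-seq marks accessible DNA by the insertions of the transposase Tn5. The cells were colonic macrophages sorted as Siglec-F(-), Ly6C(lo) and CD64(+) from male C57BL/6 mice aged 18.9 weeks. WT mice carried Lyz2-Cre alone, and Tle4cKO mice carried Tle4f/f together with Lyz2-Cre, so both groups express the recombinase, which the Lyz2 promoter drives in cells of the myeloid lineage. Cells of 2 mice per genotype, sorted at the same time, were pooled into 1 library. There is therefore no replicate error: a difference below is one between 2 libraries, no test between genotypes was possible, and every interval covers counting error only.

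TLE4 is a corepressor of the Groucho family. It does not bind DNA by itself and is brought to chromatin by DNA-binding partners, RUNX and TCF/LEF factors among them. Promoters rich in the dinucleotide CpG are accessible in most cell types, whereas promoters poor in CpG are mostly accessible only where the gene is used, and olfactory receptor genes stay closed outside the sensory neurons of the nose.

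8 promoters show what the neighbourhood of Tle4 holds, from housekeeping genes to genes closed in macrophages. The sequences are those of RefSeq (GRCm38.p6, the same assembly as mm10), from 250 bases before to 50 bases after a gene's start, 5′ to 3′ on the gene's own strand. In the first 7, capitals mark CpG. Osbp, for an oxysterol-binding protein, carried the highest peak of both lists in the window. Psat1, for a serine synthesis enzyme, is the nearest protein-coding gene on the distal side, and Zfand5, a zinc finger gene, had the highest distal peak. Trpm3, a cation channel gene, is rich in CpG and had no peak over the window. Mpeg1, for the pore-forming protein perforin-2 of macrophages, and Ms4a6b, for a membrane-spanning protein of leukocytes, are poor in CpG and had peaks. Olfr1505, an olfactory receptor gene, is the nearest protein-coding gene on the proximal side and had none. In the last, of the lymphocyte receptor gene Cd5, capitals mark an octamer bound by PU.1, a master regulator of myeloid cells. Ms4a6b, Trpm3, Zfand5 and Cd5 were picked for display after their peaks were known.
Osbp promoter, chr19:11965594-11965893, plus strand: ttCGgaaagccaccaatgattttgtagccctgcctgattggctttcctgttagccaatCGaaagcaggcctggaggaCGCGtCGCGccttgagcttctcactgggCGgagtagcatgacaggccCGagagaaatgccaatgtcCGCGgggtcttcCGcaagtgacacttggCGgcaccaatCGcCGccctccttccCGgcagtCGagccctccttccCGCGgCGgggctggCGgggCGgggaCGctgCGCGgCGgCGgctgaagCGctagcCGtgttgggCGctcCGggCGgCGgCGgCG
Psat1 promoter, chr19:15925010-15925309, minus strand: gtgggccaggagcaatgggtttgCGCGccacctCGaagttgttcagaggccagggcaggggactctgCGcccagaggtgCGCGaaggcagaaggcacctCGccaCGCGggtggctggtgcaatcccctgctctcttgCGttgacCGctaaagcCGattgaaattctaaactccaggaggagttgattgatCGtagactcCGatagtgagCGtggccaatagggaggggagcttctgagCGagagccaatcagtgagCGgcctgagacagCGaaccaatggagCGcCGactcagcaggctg
Zfand5 promoter, chr19:21272028-21272327, plus strand: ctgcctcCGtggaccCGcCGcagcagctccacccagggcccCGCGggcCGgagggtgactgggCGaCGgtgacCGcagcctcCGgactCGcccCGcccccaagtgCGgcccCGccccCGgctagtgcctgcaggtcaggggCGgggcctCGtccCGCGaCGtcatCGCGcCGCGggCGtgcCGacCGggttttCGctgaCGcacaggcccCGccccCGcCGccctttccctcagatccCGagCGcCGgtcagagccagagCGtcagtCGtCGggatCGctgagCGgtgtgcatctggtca
Trpm3 promoter, chr19:22138796-22139095, plus strand: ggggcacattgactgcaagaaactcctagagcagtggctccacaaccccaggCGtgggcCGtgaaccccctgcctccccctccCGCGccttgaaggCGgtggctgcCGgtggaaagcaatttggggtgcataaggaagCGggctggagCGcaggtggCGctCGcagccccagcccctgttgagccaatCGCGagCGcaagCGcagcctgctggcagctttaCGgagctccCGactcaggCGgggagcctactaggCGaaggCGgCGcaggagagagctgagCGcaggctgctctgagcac
Mpeg1 promoter, chr19:12460520-12460819, plus strand: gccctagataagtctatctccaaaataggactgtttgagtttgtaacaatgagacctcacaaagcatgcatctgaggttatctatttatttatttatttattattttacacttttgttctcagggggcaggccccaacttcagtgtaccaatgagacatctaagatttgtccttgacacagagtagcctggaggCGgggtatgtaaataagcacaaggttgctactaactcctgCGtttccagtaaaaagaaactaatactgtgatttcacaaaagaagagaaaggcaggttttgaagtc
Ms4a6b promoter, chr19:11518309-11518608, plus strand: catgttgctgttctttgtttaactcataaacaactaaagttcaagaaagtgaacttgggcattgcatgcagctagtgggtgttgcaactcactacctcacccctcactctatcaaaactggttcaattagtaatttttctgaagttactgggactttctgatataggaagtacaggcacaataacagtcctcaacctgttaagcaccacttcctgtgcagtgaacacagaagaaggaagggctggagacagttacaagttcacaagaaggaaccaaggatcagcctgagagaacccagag
Olfr1505 promoter, chr19:13918772-13919071, plus strand: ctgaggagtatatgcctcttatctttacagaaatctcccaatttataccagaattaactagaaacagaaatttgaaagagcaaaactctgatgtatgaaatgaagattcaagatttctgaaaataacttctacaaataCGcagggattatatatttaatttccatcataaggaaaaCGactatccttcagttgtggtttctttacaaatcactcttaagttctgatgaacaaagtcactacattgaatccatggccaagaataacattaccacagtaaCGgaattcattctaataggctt
Cd5 promoter, chr19:10738925-10739224, minus strand: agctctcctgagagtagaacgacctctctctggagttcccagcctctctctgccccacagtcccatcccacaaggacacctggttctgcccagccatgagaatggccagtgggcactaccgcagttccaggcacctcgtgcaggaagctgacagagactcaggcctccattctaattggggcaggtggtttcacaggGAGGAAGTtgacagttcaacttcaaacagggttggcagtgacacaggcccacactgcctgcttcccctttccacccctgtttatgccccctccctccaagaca

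The Osbp window holds 34 CpG in 300 bases, Zfand5 40, Trpm3 21 and Psat1 20, against 3 each in Olfr1505 and Cd5, 2 in Mpeg1 and 0 in Ms4a6b. Peak height is given as the pileup, the largest number of fragments over the peak's summit as the authors' peak caller wrote it, which is not recorded as scaled between the libraries. Osbp reached 274 in WT and 246 in Tle4cKO, Zfand5 229 and 208, Psat1 167 and 138. Cd5 had 147 and 124, Mpeg1 106 and 77, and Ms4a6b 106 and 75. WT was the higher library at all 6, as it was for most shared peaks of the genome.

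Peaks were unevenly spread around Tle4. The proximal side held 93.2 WT and 84.4 Tle4cKO peaks per Mb and the distal side 51.9 and 46.6. The Mb next to Tle4 was sparse on both sides, with 9 WT and 9 Tle4cKO peaks proximally and 15 and 20 distally. In steps of 1 Mb the proximal peaks were densest at 3 to 4 Mb (177 WT, 153 Tle4cKO), where Cd5, Cd6 and much of the Ms4a cluster lie, and at 8 to 9 Mb (171 and 164). The densest distal step was 1 to 2 Mb (133 and 106), which holds Gnaq.

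**Figure D1:**
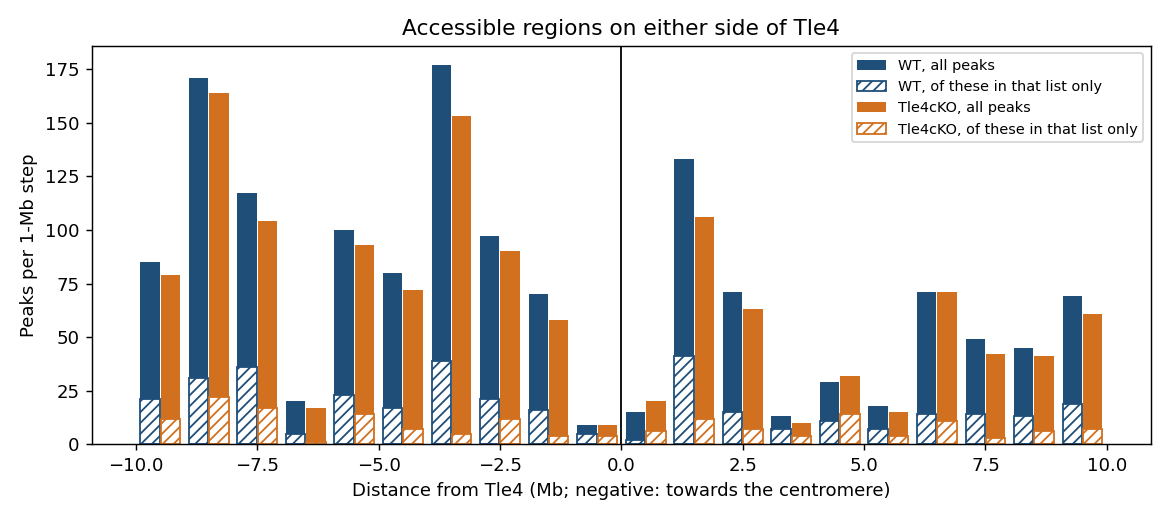
Number of peaks (y axis) in each 1-Mb step of distance from the nearest end of Tle4 (x axis, Mb, negative towards the centromere), for WT (blue) and Tle4cKO (orange); hatched bars count the peaks with no overlap in the other list. Both lists rise and fall together, with the highest bar at 3 to 4 Mb on the proximal side (177 WT and 153 Tle4cKO peaks).

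Long stretches held no peak in either list. The longest ran for 654.6 kb on the proximal side, from 9181979 to 9836556, and spans 1 protein-coding gene. The next proximal one, 451.4 kb from 13232459 to 13683828, covers 28 genes with an olfactory receptor symbol. It spans only 15 protein-coding genes in all, so some of the 28 do not code for protein. The WT list alone was empty for 748.7 kb there, from 13232459 to 13981194, over 43 genes with such a symbol and 26 protein-coding genes in all. On the distal side the longest stretch was 422.0 kb, from 19817387 to 20239367, and contains no protein-coding gene.

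The strongest peaks nearly all lay at gene starts and were found in both lists. On the proximal side, after Osbp (11964886 to 11966110), came Fth1, for ferritin heavy chain, with 254 in WT and 224 in Tle4cKO, and Sf1, a splicing factor gene, with 249 and 222. Fkbp2, for a peptidyl-prolyl isomerase, had 243 and 208, Stip1, for a cochaperone, 229 and 210, and a peak 38955 bp from Incenp, a chromosomal passenger gene, 242 and 200. On the distal side, Zfand5 (21271481 to 21273276) was followed by Abhd17b, for a depalmitoylating enzyme, with 220 and 202, by the peak between Ostf1 and Nmrk1 with 219 and 185, and by Klf9, a zinc finger factor gene induced by glucocorticoids, with 218 and 188. The Tle4cKO to WT ratio of these 10 ranged from 0.826 near Incenp to 0.918 at Abhd17b, against a median of 0.741 over all 92335 shared pairs of the genome. Pairs of like height elsewhere had ratios close to theirs, the log2 difference from them running from -0.05 near Incenp to 0.11 at Abhd17b.

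The remaining tall distal peak did not lie at a promoter. It is in the body of Tmc1 (21031505 to 21032616), for a channel component of inner ear hair cells, and reached 225 in WT and 171 in Tle4cKO. Its ratio was 0.760 (95% exact interval 0.619 to 0.931, treating the pileups as counts, which summit maxima are only approximately).

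The main question was whether regions near Tle4 were found in 1 list only more or less often than elsewhere. A peak was called shared where 1 bp or more of it lay within a peak of the opposite list, and otherwise WT-only or Tle4cKO-only. On the flanks 357 WT peaks were WT-only, 24.8% (95% Wilson interval 22.6 to 27.1), against 27.1% of all WT peaks. There were 172 Tle4cKO-only peaks, 13.2% (11.5 to 15.2), against 23.5% of all Tle4cKO peaks. Tle4cKO-only peaks were thus scarcer than in the genome, and the WT-only share differed less.

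Part of that scarcity goes with height, since weak peaks are more often found once. The flanks had a median pileup of 36 in WT and 28 in Tle4cKO, against 28 and 20 over all peaks. Peaks of like pileup on the other autosomes predicted 326 WT-only peaks (22.7%), so the observed number was 1.09 times the predicted one. They predicted 215 Tle4cKO-only peaks (16.5%), and the observed number was 0.801 of that. In the rest of chromosome 19 the same quotients were 1.03 for WT-only (663 of 2500 peaks) and 0.930 for Tle4cKO-only (444 of 2343).

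The shortfall lay among weak peaks. Of the 509 Tle4cKO peaks with a pileup under 20, 161 were Tle4cKO-only (31.6%, interval 27.7 to 35.8), against 203 predicted. Of the 342 with 20 to 46 it was 10 (2.92%), against 10.7 predicted. With members limited to a pileup of at least 15 the quotient was 0.978, and with at least 20 it was 0.927. Among WT peaks of 28 to 66, 35 of 366 were WT-only (9.56%, interval 6.96 to 13.0), against 27.3 predicted.

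Both sides of Tle4 showed fewer Tle4cKO-only peaks than predicted: 98 of 839 proximally (11.7%, 0.845 of the predicted number) and 74 of 461 distally (16.1%, 0.749). WT-only peaks exceeded the predicted number on the proximal side (214 of 926, 23.1%, 1.18 times) and not on the distal side (143 of 513, 27.9%, 0.991). Within 2.5 Mb of Tle4, 74 of 271 WT peaks (27.3%) and 32 of 233 Tle4cKO peaks (13.7%) were in 1 list only, with quotients of 1.01 and 0.714.

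No steady change with distance appeared. Tle4cKO-only peaks stood at 44.4% of 9 peaks in the first proximal Mb and 30.0% of 20 in the first distal Mb, numbers too small to rank (intervals 18.9 to 73.3 and 14.5 to 51.9). From 1 to 2.5 Mb they were 8.33% of 84 proximally and 12.5% of 120 distally, or 0.653 and 0.595 of the predicted number. From 2.5 to 5 Mb the sides parted: 21 of 289 proximally (7.27%, interval 4.80 to 10.9, 0.527 of the predicted 39.8), and 22 of 91 distally (24.2%, 0.95). Farther out the proximal steps were at or above prediction, 1.13 at 5 to 7.5 Mb and 1.01 at 7.5 to 10 Mb, while the distal ones were below it, 0.713 and 0.682.

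The lowest share of Tle4cKO-only peaks among the 1-Mb steps was at 3 to 4 Mb on the proximal side, a step singled out after its values were seen. It was 5 of 153 (3.27%, interval 1.40 to 7.42) against 18.4 predicted. WT-only peaks in the same step were 39 of 177, with 34.3 predicted.

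**Figure D2:**
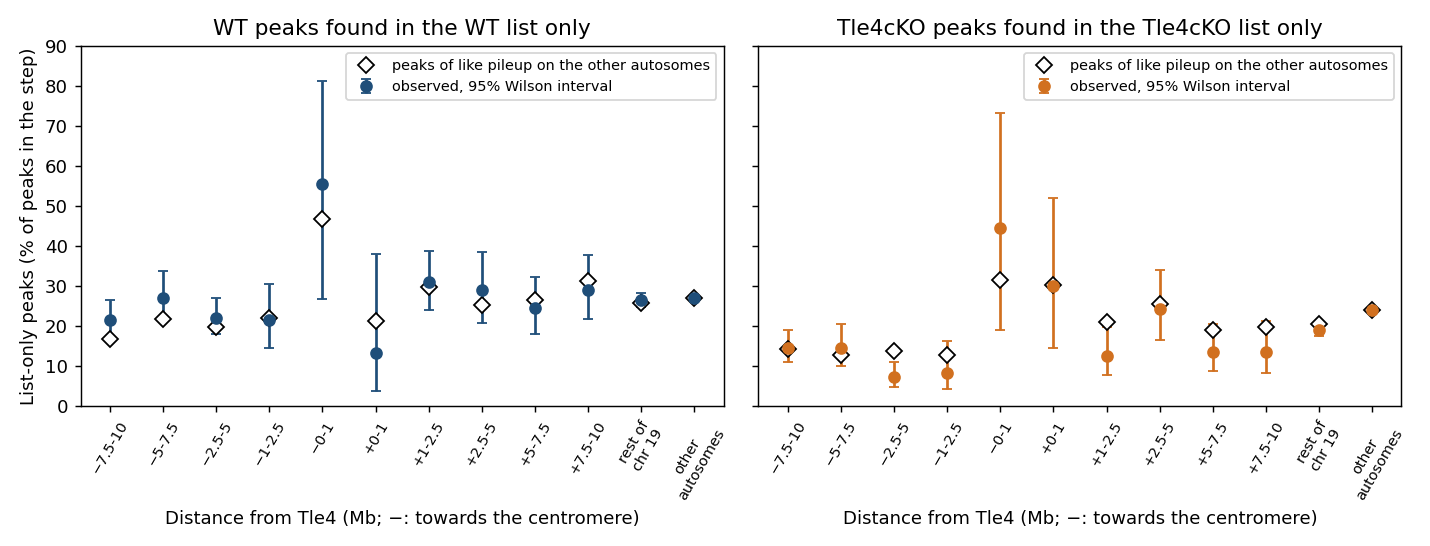
Percentage of WT peaks that were WT-only (left) and of Tle4cKO peaks that were Tle4cKO-only (right), by distance from Tle4 (x axis, Mb, minus towards the centromere), with the rest of chromosome 19 and the other autosomes at the right of each panel. Filled circles are observed shares with 95% Wilson intervals and open diamonds the shares of peaks of like pileup on the other autosomes; the Tle4cKO share lies below its diamond at 1 to 2.5 Mb distally (12.5%, 0.595 of prediction) and at 2.5 to 5 Mb proximally (7.27% against 13.8%), and on it at 7.5 to 10 Mb proximally.

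Over the whole of chromosome 19, flanks included, the Tle4cKO-only quotient was 0.888, the lowest of the 19 autosomes (0.941 to 1.06 in the others), with only chromosome X lower at 0.437. For WT-only peaks it was 1.05, the highest autosomal value (0.963 to 1.04 in the others). Without the flanks the values of 0.930 and 1.03 given above lie below and within the range of the other autosomes. When the rest of chromosome 19 gave the prediction, an alternative added after the data were seen, the flank quotients were 1.07 for WT-only and 0.861 for Tle4cKO-only.

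Peaks found in 1 list only were almost never promoters. Promoter peaks, those within 1000 bp of a RefSeq gene start, made up 19.1% of the 1082 shared WT peaks and 2.24% of the WT-only ones (8 of 357). Among Tle4cKO peaks they were 18.6% of 1128 shared and 2.33% (4 of 172) of Tle4cKO-only peaks. The rest of chromosome 19 had the same trait, promoters making up 16.8% of shared WT peaks but 3.77% of the WT-only and 4.50% of the Tle4cKO-only ones. On the distal side none of 143 WT-only and none of 74 Tle4cKO-only peaks was a promoter (upper 95% Wilson limits 2.62% and 4.93%). The 12 exceptions were low, with pileups of 9 to 23, and included Ms4a3, Oosp1, Olfr1441 and Lrrc10b in WT and Kcnk4 in Tle4cKO, which are named here for this reason alone.

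Strong peaks in 1 list only were rare, 4 of 474 WT peaks in the upper quartile of their list, a pileup of 67 or more (0.844%, against 0.518% of all strong WT peaks), and 1 of 449 Tle4cKO peaks at 47 or more (0.223%, against 0.313%). The WT ones reached 105 near Malat1 (5811988 to 5812512), 99 in Ehbp1l1, an actin-binding protein gene, 76 at 13429 bp from Osbp, and 71 in Ehd1, an endosomal recycling gene. The Tle4cKO one, with 86, lay in Neat1 (5841630 to 5842004). The 4 WT ones were 60 to 926 bp from a Tle4cKO peak, and the Neat1 peak was 2603 bp from a WT peak.

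On the distal side the strongest peaks in 1 list only were lower. Those of WT were in Prune2 (54), Gcnt1, for a glycan-branching enzyme (47), Ostf1 (43 and 30), and 9058 bp from Carnmt1 (39). Those of Tle4cKO were 29046 bp from Abhd17b (24), in Smc5, for a DNA repair complex (17), in Gnaq (16), near Gda (14) and in Apba1 (14). The other proximal Tle4cKO-only peaks among the 5 strongest were in Tmem132a (41), Ahnak (40 and 29) and Vps37c (29).

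The stretch around Malat1 and Neat1, which encode abundant noncoding RNAs of the nucleus, held tall peaks that differed between the lists. Within 10 kb of the 2 genes lay 21 WT peaks of 45 to 214 and 19 Tle4cKO peaks of 22 to 186. Of these 4 were WT-only and 2 Tle4cKO-only, against 0.280 and 0.130 predicted from height. The WT-only peaks had pileups of 105, 65, 55 and 45, and the Tle4cKO-only ones 86 and 22. All but the first of the WT-only peaks lay over 500 bp from any peak of the other list. At the Malat1 start itself both lists had a peak, of 155 and 131.

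Among shared peaks, a WT and a Tle4cKO peak formed a pair where each was the highest peak overlapping the other. This gave 1060 pairs on the flanks. Their median Tle4cKO to WT ratio was 0.723 against 0.741 for all pairs. The Tle4cKO pileup was the higher one in 32 pairs (3.02%, against 6.59% of all pairs). Because the ratio moves with height, each pair's log2 ratio was then set against the median of pairs of like summed pileup, called the relative log2 ratio here.

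By that measure the flanks were close to the genome. The median relative log2 ratio was -0.02, and 567 pairs (53.5%) lay below pairs of like height, against 47.5% of all pairs. The proximal side had a median of -0.03 (391 of 698 below) and the distal side 0.00 (176 of 362 below). The rest of chromosome 19 also had -0.02 after rounding, with 52.3% of 1796 pairs below. Only 15 pairs were over 1.5-fold higher in Tle4cKO than pairs of like height (1.42%, against 3.58%), and 44 were over 1.5-fold lower (4.15%, against 3.71%). In the rest of chromosome 19, 54 pairs (3.01%) were higher and 79 lower by that much, and the Tle4cKO pileup was the higher one in 5.85%. Such pairs were rarer among tall peaks. With both pileups at or above the genome's median pair, 0.279% of all pairs were higher and 0.306% lower by that much. Flank peaks were taller than those of the genome, so the shares of 3.58% and 3.71% are not shares at like height.

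**Figure D3:**
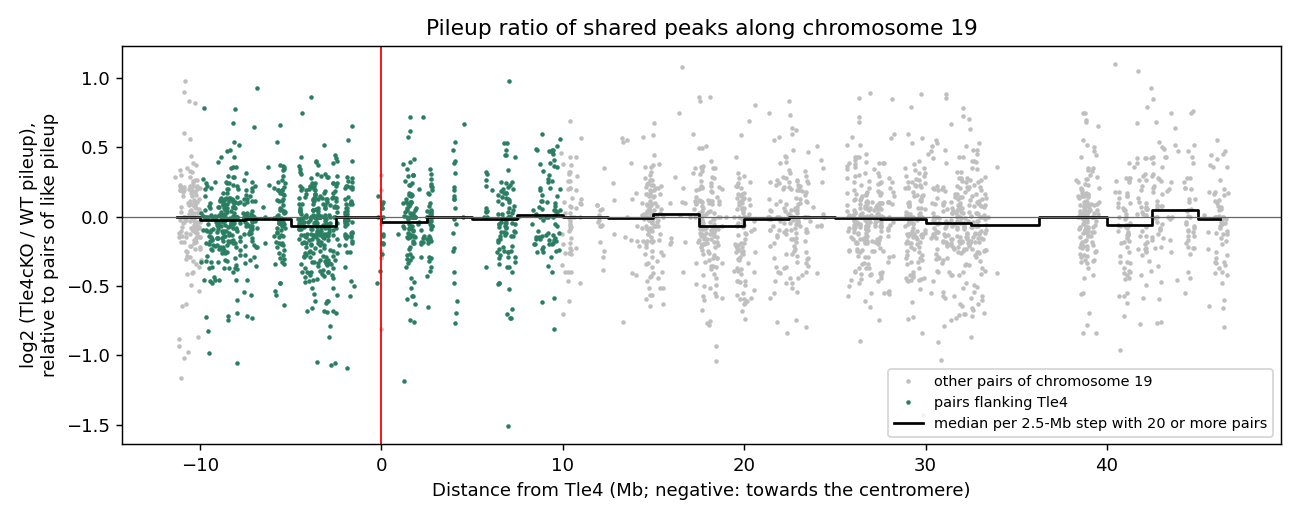
Relative log2 ratio of Tle4cKO to WT pileup (y axis) of each shared pair of chromosome 19 by distance from Tle4 (x axis, Mb, negative towards the centromere); green points are the 1060 flank pairs, grey points the rest of the chromosome, and the black line the median of each 2.5-Mb step with at least 20 pairs. The line stays near 0 on both sides of Tle4 and lies at -0.07 at 2.5 to 5 Mb on the proximal side.

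The step at 2.5 to 5 Mb on the proximal side had the lowest median among steps with 20 or more flank pairs, -0.07. Of its 251 pairs 150 lay below pairs of like height (59.8%, against 47.5% of all pairs). Over 1.5-fold lower were 14 (5.58%, against 3.71%) and over 1.5-fold higher 2 (0.797%, against 3.58%). The step holds the Ms4a cluster, 21 genes for membrane-spanning proteins, several of them of leukocytes. The cluster with 10 kb on either side (10952289 to 11650851), chosen after these values were seen, had 117 WT peaks of 8 to 130 and 94 Tle4cKO peaks of 8 to 87. Of its 83 pairs 56 lay below pairs of like height (67.5%, against 47.5% of all pairs), and the median was -0.12. Over 1.5-fold lower were 7 (8.43%, against 3.71%) and over 1.5-fold higher 0 (against 3.58%). WT-only were 32 of its WT peaks, against 22.2 predicted from height, and Tle4cKO-only 4 of its Tle4cKO peaks, against 9.32 predicted.

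Of the 20 Ms4a genes with a pair in the gene or within 10 kb, 17 had a median relative log2 ratio below 0 and 3 above it, from -0.39 to 0.13; neighbours share peaks in these flanks. Ms4a4b, expressed in T cells, had -0.35 over 5 pairs, and Ms4a1, which encodes the B cell antigen CD20, -0.15 over 9. Among the Ms4a genes of the innate and myeloid list, Ms4a6c had -0.33 over 8 pairs, Ms4a4a -0.13 over 6, Ms4a6b -0.12 over 7, Ms4a6d -0.11 over 7, Ms4a7 -0.01 over 8 and Ms4a4c 0.06 over 4. In Ms4a4a a peak 771 bp from its start (11376259 to 11376921) had 88 in WT and 40 in Tle4cKO, a ratio of 0.455 (0.305 to 0.668). The peak 7188 bp from Ms4a6c (11494370 to 11495079) had 75 and 34, a ratio of 0.453 (0.293 to 0.688). That peak lies 2332 bp from the start of Gm8369, and which gene it belongs to was not tested. At the Ms4a6c start itself the pair was 68 and 58, a relative log2 ratio of 0.29.

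Markers of other cells that a sort could hold were compared in the same way, through the highest WT peak within 1 kb of either end of each gene. All 7 macrophage markers had such a peak (95 to 178), and the 6 that formed a pair had relative log2 ratios of -0.08 to 0.14 with a median of 0.05. Of 21 markers of eosinophils, monocytes, lymphocytes, neutrophils, epithelium and stroma, 17 had a WT peak and 14 formed a pair, with relative log2 ratios of -0.29 to 0.45 and a median of 0.04. Of these 14 pairs 6 lay below pairs of like height and 0 were over 1.5-fold lower. The eosinophil marker Siglecf, selected against in the sort, had 101 in WT and 63 in Tle4cKO (-0.20), and the B cell marker Cd79a had 153 and 121 (0.02). Ly6g and Cdh5 had WT-only peaks of 12 and 10, and Epx, Cd8a, Cdx2 and Krt20 had no peak in either list. The part of such cells in the Ms4a values was not tested, and fewer cells of a type and less open DNA per cell cannot be told apart in pooled nuclei.

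Single pairs farthest from the rest were looked for among those with both pileups at or above the genome's median pair. Of 589 such flank pairs, 0 were over 1.5-fold higher, against 0.279% of all such pairs, and 4 over 1.5-fold lower (0.679%, against 0.306%). The 4 were the 2 Ms4a peaks above, a peak 2150 bp from Capn1, for a calpain protease (6017975 to 6018903), with 76 and 32, and a peak in Cemip2, for a cell surface hyaluronidase (21796155 to 21796928), with 69 and 30. The Capn1 ratio was 0.421 (0.269 to 0.644) and the Cemip2 ratio 0.435 (0.273 to 0.677). Next in order came Cnih2 and Bscl2 proximally, each with 63 and 31, and distally a peak 16137 bp from Tmc1 (98 and 50), Prune2 (86 and 45), Fam189a2 (83 and 44) and Ostf1 (57 and 30).

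At the other end no pair of this height passed 1.5-fold. A peak 18837 bp from Gnaq, towards Gna14 (16407357 to 16409019), had 116 in WT and 118 in Tle4cKO, the only such pair with a higher pileup in Tle4cKO. Its relative log2 ratio was 0.41, and its ratio of 1.02 had an interval of 0.781 to 1.33. Pola2, for a subunit of DNA polymerase alpha, had 63 and 61 (0.47), and Tmem132a 59 and 54 (0.40). The others were Lpxn, a leukocyte adhesion adaptor gene (47 and 43), Fosl1, for an AP-1 subunit (45 and 41), a peak 7513 bp from Osbp (44 and 40) and, distally, peaks near Fam189a2 (56 and 53), in Nmrk1 (54 and 49), in Gnaq (63 and 58) and in Ostf1 (92 and 88). All 10 ratios of this group lay between 0.907 and 1.02.

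**Figure D4:**
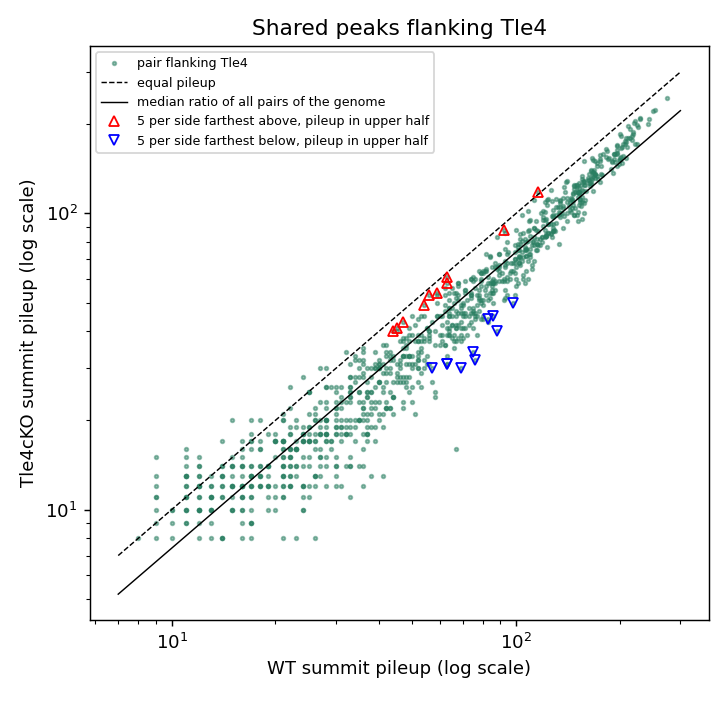
Tle4cKO summit pileup (y axis, log scale) against WT summit pileup (x axis, log scale) of the 1060 shared pairs flanking Tle4; the dashed line is equal pileup, the solid line the median ratio of all pairs of the genome, and triangles mark the 5 pairs per side farthest above (red) and below (blue) among those at or above the genome's median pileup. Nearly all points lie under the dashed line, and the scatter narrows as pileup rises.

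The widest difference of all flank pairs involved a weaker Tle4cKO peak. Between Gda and Abhd17b, 89753 bp from Gda (21562414 to 21563389), a peak of 67 in WT stood against 16 in Tle4cKO, a ratio of 0.239 (0.129 to 0.417) and a relative log2 ratio of -1.51. This pair was singled out after its values were seen. The highest relative log2 ratio, 0.98, came from a pair of 9 and 15 (40926 bp from Abhd17b), whose ratio of 1.67 had an interval of 0.683 to 4.32.

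The neighbours of Tle4 itself showed little. Olfr1505, 0.528 Mb away on the proximal side, had no peak in the gene or within 10 kb. Psat1, 1.31 Mb away on the distal side, had its promoter peak in both lists (15923202 to 15925712). Its ratio of 0.826 (0.655 to 1.04) was that of other peaks of its height, a relative log2 ratio of 0.03. Each list also had 1 peak of its own there, both with a pileup of 10.

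Gene groups are described by the peaks in each gene and within 10 kb of it, and a peak near 2 genes of a list was counted once. The 22 innate and myeloid genes held 153 WT and 146 Tle4cKO peaks. WT-only were 29 (21.4 predicted) and Tle4cKO-only 15 (13.6 predicted). Of their 124 pairs 2 were over 1.5-fold higher and 7 lower, against 3.58% and 3.71% of all pairs. Their median relative log2 ratio was -0.01. Mpeg1 had 7 peaks in each list, all shared, of 106 to 156 in WT and 77 to 125 in Tle4cKO. Ahnak, for a giant scaffold protein, had 30 WT and 33 Tle4cKO peaks with a promoter of 123 and 107, and Slc15a3, a peptide and histidine transporter gene of lysosomes, 9 and 8 peaks. Rela, for the p65 subunit of NF-κB, had 185 and 153 at its promoter, and Anxa1, for the anti-inflammatory protein annexin A1, 79 and 57. These promoter pairs sat at relative log2 ratios of 0.01 (Rela), 0.03 (Anxa1), 0.05 (Fth1) and -0.01 (Mpeg1).

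The 4 lymphocyte genes, Cd5, Cd6, Ms4a1 and Ms4a4b, had 39 WT and 40 Tle4cKO peaks. Of these 4 were WT-only (6.41 predicted) and 3 Tle4cKO-only (6.86 predicted). Of their 33 pairs 17 lay below pairs of like height, 0 were over 1.5-fold higher and 4 over 1.5-fold lower, and the median relative log2 ratio was -0.01. By gene it was 0.10 at Cd5 and 0.01 at Cd6, and below 0 at Ms4a1 and Ms4a4b as given above. Over all pairs of the genome 3.58% were higher and 3.71% lower by that much. Cd5 and Cd6, which encode paired scavenger-type receptors of lymphocytes, reached pileups of 147 and 196 in WT and 124 and 160 in Tle4cKO, in a sort for macrophages.

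The 18 housekeeping genes had 76 peaks in each list, 12 of them in that list only in both (8.52 predicted for WT, 8.90 for Tle4cKO). Of their 62 pairs 0 were over 1.5-fold higher and 2 lower, against 3.58% and 3.71% of all pairs. Sf1, Eef1g, for a translation elongation subunit, Nxf1, for an mRNA export factor, and Hnrnpul2, for an RNA-binding protein, reached 249, 207, 167 and 222 in WT.

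The 10 lipid and retinoid genes had 61 WT and 53 Tle4cKO peaks, with 16 WT-only (13.4 predicted) and 8 Tle4cKO-only (6.68 predicted). Of their 45 pairs 2 were over 1.5-fold higher and 0 lower, against 3.58% and 3.71% of all pairs. Dagla, for a diacylglycerol lipase that makes an endocannabinoid, had 15 and 13 peaks, and -0.17 was its median relative log2 ratio. The desaturase genes Fads2 and Fads3 had 8 WT peaks each, and 0.04 was the median of either. Aldh1a1, a retinaldehyde dehydrogenase gene, had no WT peak and 1 Tle4cKO peak of 9.

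The 12 signalling genes had 167 WT and 139 Tle4cKO peaks, with 49 WT-only (43.9 predicted) and 16 Tle4cKO-only (22.0 predicted). Of their 115 pairs 3 were over 1.5-fold higher and 3 lower, against 3.58% and 3.71% of all pairs. Gnaq, for the alpha subunit of the Gq protein, had the most peaks of any listed gene, 79 in WT and 62 in Tle4cKO. Of these 26 were WT-only, with pileups of at most 21 (23.3 predicted), and 8 Tle4cKO-only, of at most 16 (11.0 predicted). Its 50 pairs had a median relative log2 ratio of 0.00 and its promoter had 140 and 128. Mark2, for a polarity kinase, had 22 and 16 peaks, Apba1, an adaptor gene, 15 and 15, and Gna14, for another Gq-class subunit, 10 and 11.

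The 31 listed genes on the distal side together had 325 WT and 291 Tle4cKO peaks. WT-only peaks numbered 92 (90.7 predicted) and Tle4cKO-only peaks 45 (60.0 predicted). Of 227 pairs 4 were over 1.5-fold higher and 11 lower, against 3.58% and 3.71% of all pairs. Prune2 had 22 and 17 peaks and Gda, for guanine deaminase, 16 and 19. At Klf9 the WT list had 9 peaks, 5 of them WT-only with pileups of at most 12 (3.81 predicted). The Tle4cKO list had 5 there, all shared, and the promoter pair had a relative log2 ratio of 0.01.

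The 12 genes chosen as not expected open in macrophages, known from neurons, the eye, the inner ear, the airway or the kidney, were not free of peaks. They had 76 WT peaks (26 WT-only, 24.0 predicted) and 66 Tle4cKO peaks (14 Tle4cKO-only, 17.0 predicted). Nrxn2, a neurexin gene, had 29 and 22, and Syt7, for a calcium sensor of exocytosis, 9 and 4. Neighbours' promoters enter such flanks: the peaks of Best1 reach 254 at the Fth1 promoter, and the 178 of Nrxn2 is also counted at Rasgrp2. The 63 olfactory receptor genes had 18 WT and 12 Tle4cKO peaks in or near them (8 and 2 in 1 list only, 7.81 and 3.06 predicted) and 0 promoter pairs.

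Most promoters outside the olfactory receptor genes were accessible in both libraries. The window held 332 named protein-coding genes. Of these 273 had a start in the RefSeq table, and 178 of the 273 had a shared pair at a promoter. Taking 1 promoter pair per gene, 0 of the 178 genes were over 1.5-fold higher and 3 were over 1.5-fold lower. The 3 genes are named for this reason: Oosp2, an oocyte gene (41 and 13), Bbs1, a ciliary gene (36 and 14), and Vwce (58 and 25). All 3 promoters were weaker than the median promoter pair, 146.5 in WT and 111 in Tle4cKO. A gene with several promoter pairs entered through 1 of them, so the 0 depends in part on that pick. Foxb2 entered with a pair of 24 and 15, while a pair of 17 and 20 at its promoter window had a relative log2 ratio of 0.72. Counted by pair, 2 of the 204 promoter pairs on the flanks were over 1.5-fold higher (0.980%) and 4 lower (1.96%). Over all promoter pairs of the genome it was 1.46% and 1.31%. By class, the 204 promoter pairs had a median relative log2 ratio of -0.01. It was -0.02 for the 568 pairs in gene bodies and -0.05 for the 288 pairs outside genes.

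Whether a promoter was accessible went with its CpG content. Of 343 promoter windows of 300 bases, 211 (61.5%) overlapped a peak in both lists, against 57.7% of 21263 promoters in the whole table. 7 had a WT peak and no Tle4cKO peak, 2 the reverse and 123 neither, against 468, 271 and 8260 of the whole table. Windows with a peak in both lists had a median of 21 CpG and 61.7% GC, and those with none 2 CpG and 41.0% GC. Olfactory receptor promoters, 59 of the 343, had a median of 1 CpG, and 0 of them had a peak in both lists.

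Split after the values were seen, windows with 15 or more CpG had a peak in both lists in 159 of 164 cases (97.0%, interval 93.1 to 98.7; 88.6% in the whole table). With 5 to 14 CpG it was 38 of 63 (60.3%; 50.8% in the table) and with 0 to 4 CpG 14 of 116 (12.1%; 12.6% in the table). The 5 CpG-rich windows with none were those of Trpm3, Npas4, Pcsk5, Lrrc10b and Tmem151a, of which Trpm3 and Npas4 are best known from neurons. The 14 CpG-poor windows with a peak in both lists included Mpeg1, Anxa1, Cd5, Fermt3, for the integrin activator kindlin-3 of blood cells, Gcnt1 and 6 Ms4a genes. Of these Fermt3 was the tallest, with 211 in WT and 197 in Tle4cKO, and Ms4a4c had 57 and 43 with 0 CpG. Over windows with a pair, the median relative log2 ratio was 0.00 with 0 to 4 CpG (15 windows) and -0.03 with 5 to 14 (42 windows). With 15 or more CpG it was -0.01 (159 windows). A pair over several windows was counted at each, and these differences were not tested.

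**Figure D5:**
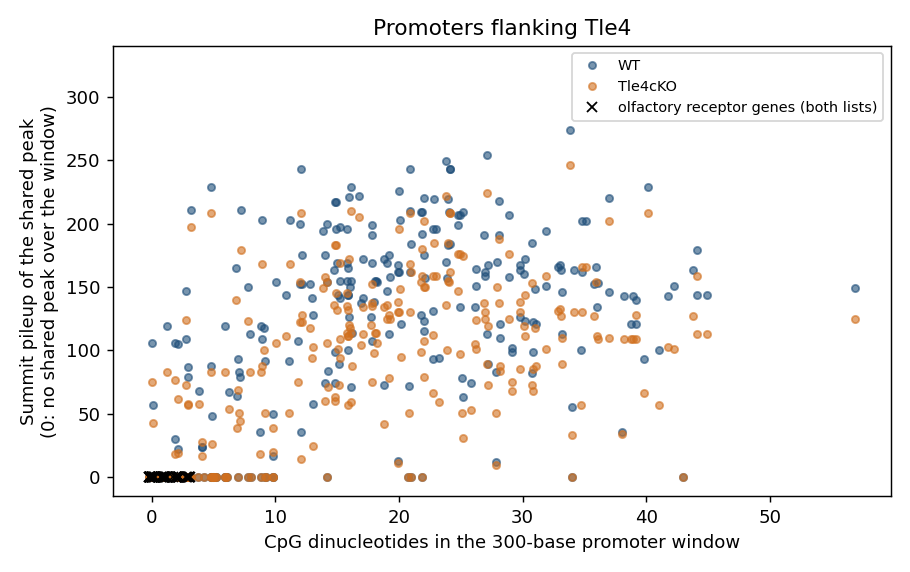
Summit pileup of the shared peak over each promoter window flanking Tle4 (y axis, 0 where no shared peak overlaps it) against the number of CpG dinucleotides in the 300-base window (x axis), for WT (blue) and Tle4cKO (orange); crosses are olfactory receptor genes, and points are shifted slightly sideways to part them. Nearly all windows with 15 or more CpG carry a peak (159 of 164), and 14 of 116 with 4 or fewer do.

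Short motifs of factors that work with TLE proteins or in macrophages were counted on both strands of the same windows, as a description of letters and not of binding. The TCF/LEF core CTTTGA was in 64 of 343 windows (18.7%; 14.4% of the table), and in 10.9% of the 211 with a peak in both lists (11.1% of such windows in the table). The RUNX hexamer TGTGGT was in 40 (11.7%; 15.0%) and in 8.06% of those with a peak (12.3%). The AP-1 heptamer TGACTCA was in 15 (4.37%; 4.66%) and in 3.79% of those with a peak (3.64%), and the E-box CACGTG in 22 (6.41%; 7.84%) and in 9.95% of those with a peak (10.2%). The PU.1 octamer GAGGAAGT was in 6 (1.75%; 3.13%), the promoters of Bad, Ccdc88b, Cd5, Gcnt1, Gpr137 and Olfr1427. Of these 6, all but Olfr1427 had a peak in both lists, and the relative log2 ratios of the 5 ran from -0.01 (Ccdc88b) to 0.24 (Gcnt1). Bad and Gpr137 lie under 1 shared peak, and none of the 5 motifs contains another.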

How the data were processed

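The lists hold 1 row per peak with 1-based start and end, summit and pileup. The pileup is a signal that the authors deposited as whole numbers of 7 or more, per the file headers the coverage at the summit. Per the submitters' processing notes, MACS2 2.1.1, Bowtie2 2.2.5, cutadapt 1.14 and the build mm10 were used. Neither a scaling between libraries nor a read total is given in the sources used here, so depth is unknown. Members and gene lists were chosen with earlier results of these data known. Pairs were reciprocal best overlaps (92335). Relative log2 ratios used the median of 50 bins of summed pileup, and predicted numbers the shares at like pileup on autosomes other than 19. List-only calls and relative log2 ratios were run on a thinned copy of the WT list, and the predicted numbers were not. The copy kept every peak position and only tall peaks were removed or lowered. Its list-only result was therefore fixed in advance and says nothing about weak or shifted peaks. Genes and promoters came from RefSeq tables of GRCm38.p6, and a list names up to 4 genes with most peaks, besides Tle4's neighbours, the 5 strongest or most extreme peaks per side, and Rela, Malat1, Neat1, Mpeg1, Fth1, Anxa1, Klf9, Gnaq and Psat1; 1 gene under this rule is not reported here. Intervals are 95% Wilson for shares and exact Clopper-Pearson for ratios. The alternatives changed the overlap, pileup minimum, bins and window. Python 3.11.15, numpy 2.4.6, scipy 1.17.1 and pandas 2.3.3 were used.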

Additional observations from a re-analysis of the deposited data

How the results depend on the processing

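Of 49 alternative values for 10 results, 33 moved by less than the counting interval and 16 by more. Counting peaks within 500 bp as shared lowered the WT-only share to 21.6% and the Tle4cKO-only share to 10.1%. Requiring a member pileup of at least 15 gave 10.4% and 2.68% (within 2.5 Mb 8.76% and 1.97%), and at least 20 gave 6.21% and 1.39% (4.79% and 0.781%). The Tle4cKO-only quotient became 0.978 and 0.927 under these minimums and 0.696 in a window of 5 Mb on either side. With both pileups at 20 or more, the median relative log2 ratio within 2.5 Mb turned from -0.014 to 0.021, and 0.667% of flank pairs were over 1.5-fold higher and 0.933% lower. Fewer peaks are members under each minimum; otherwise the cause was not tested.

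No paired analysis was possible because each genotype has 1 library. Leaving out a library was not possible either. Low pileups limit most list-only calls, which in WT had a median of 12 and in Tle4cKO of 10.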
